A study of Mus musculus with 9 samples.

Results

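The 8 genes described here encode Bptf and the subunits that mammalian ISWI chromatin remodelers are built from, and they were taken by symbol from the 49326 named genes of the deposited tables. They are Bptf, Smarca1, Smarca5, Rbbp4, Rbbp7, Baz1a, Baz1b and Cecr2. The libraries are polyA+ RNA from embryonic stem cells of the mouse (day 0) and from embryoid bodies (day 4 and day 8), either wild type or Hnrnpll-/-. Stem cells grew with 15% serum and leukemia inhibitory factor, and the bodies, aggregates in which stem cells differentiate, formed in hanging drops. Wild type gave 1 library at each day and the knockout gave 2 libraries at each day, from the lines named G6 and H8, so 9 libraries form 6 groups. How the lines were made, and whether each is a single clone, is not stated in the labels. Because wild type is 1 line, genotype and line cannot be told apart in any comparison, and the spread behind the tests within a day comes from the difference between G6 and H8 alone.

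ISWI remodelers slide and space nucleosomes with the ATPases Smarca5 (Snf2h) or Smarca1 (Snf2l), each joined to a large partner that decides which complex is formed. Bptf, which reads modified histone tails, forms NURF with an ISWI ATPase and the histone-binding WD-repeat proteins Rbbp4 and Rbbp7. Baz1a forms ACF and Baz1b forms WICH with Smarca5, and Cecr2 forms CERF with Smarca1. NURF is known to be needed for germ layer formation in mouse embryos, and Bptf transcripts are a known target, in stem cells, of the splicing regulator Hnrnpll. The tables are at gene level, and splicing of Bptf was therefore not analysed here.

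The promoters of Smarca1 and Rbbp7, which had the largest differences between the genotypes over all days among the 8, and of Bptf are shown because the genes differ in how many CG dinucleotides lie before their start. The sequences are RefSeq windows of 250 bases ending at the gene's start (GRCm38.p6), 5′ to 3′ on the gene's strand, with CG dinucleotides in capitals. The Smarca1 window is chrX:47892614-47892863 on the minus strand, that of Rbbp7 is chrX:162760122-162760371 on the plus strand, and that of Bptf is chr11:107132148-107132397 on the minus strand. None of the 3 windows overlaps an annotated exon of GENCODE M21, and the Smarca1 window lies inside that gene's annotated span, in an intron of transcripts that start further upstream.
Smarca1: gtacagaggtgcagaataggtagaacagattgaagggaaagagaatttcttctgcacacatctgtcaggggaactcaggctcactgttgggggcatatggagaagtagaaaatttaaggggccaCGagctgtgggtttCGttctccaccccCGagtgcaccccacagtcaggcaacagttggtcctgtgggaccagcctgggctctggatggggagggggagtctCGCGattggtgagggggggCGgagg
Rbbp7: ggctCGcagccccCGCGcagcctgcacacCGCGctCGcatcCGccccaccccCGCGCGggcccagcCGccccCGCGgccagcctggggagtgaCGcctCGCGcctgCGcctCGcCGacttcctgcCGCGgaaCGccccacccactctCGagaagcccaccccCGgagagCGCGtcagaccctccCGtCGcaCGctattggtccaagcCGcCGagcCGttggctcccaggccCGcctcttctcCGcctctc
Bptf: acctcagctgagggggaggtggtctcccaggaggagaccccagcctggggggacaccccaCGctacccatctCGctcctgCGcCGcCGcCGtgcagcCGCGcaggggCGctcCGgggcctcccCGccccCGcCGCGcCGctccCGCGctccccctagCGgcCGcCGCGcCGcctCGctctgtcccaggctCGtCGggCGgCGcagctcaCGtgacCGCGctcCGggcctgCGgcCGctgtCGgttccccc
The Smarca1 window holds 6 CG dinucleotides, which is the median of 32851 promoters, and 50.4% of promoters hold as many or more. The windows of Rbbp7 and Bptf hold 34 each, a number that 3.53% of promoters reach. The letters TATAAA, searched on both strands, occur in 12.4% of promoters and in none of the 6 windows matched to the 8 genes (all but Baz1a and Cecr2).

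Total counts ran from 54202944 to 184890212 per library, with the day 0 knockout libraries the shallowest (54202944 in G6 and 61611725 in H8). In these libraries 43.5% and 42.6% of low counts (up to 40) fell on multiples of 4, against 30.5% to 33.2% in the others. The share to be found without such a pattern was not worked out, so the other libraries are not a normal level to compare with. The reason for the pattern was not tested. Hnrnpll itself was measured at 77.1, 101 and 112 TPM (a level scaled to transcript length and to the library) in wild type, in order of day. Knockout levels were 39.7 ± 21.5, 49.9 ± 16.0 and 50.03 ± 9.19 TPM (mean ± SD, n = 2 lines), so its RNA remained in both lines. The Y-linked gene Eif2s3y was at 82.2 to 134 TPM in wild type and at 0 to 2.15 TPM in the knockout, so the lines also differed in Y-linked RNA.

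By level, the genes ran from Rbbp7, with a median over the 9 libraries of 412 TPM, through Rbbp4 (215 TPM), Smarca5 (104 TPM), Baz1b (85.4 TPM), Bptf (61.3 TPM), Cecr2 (41.9 TPM) and Baz1a (22.6 TPM) to Smarca1 (12.8 TPM). The ranges of Rbbp7 and Rbbp4, of Rbbp4 and Smarca5, and of Baz1b and Bptf did not overlap. Those of the other neighbours in this order did overlap. All 8 passed the filter on low counts in every comparison. Differences between groups are given below as log2 differences of counts normalised to library size, knockout minus wild type, with a standard error (SE) and an adjusted p. The adjusted p comes from edgeR's quasi-likelihood test with Benjamini-Hochberg adjustment over 24794 genes, and 0.05 was the threshold.

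**Figure D1:**
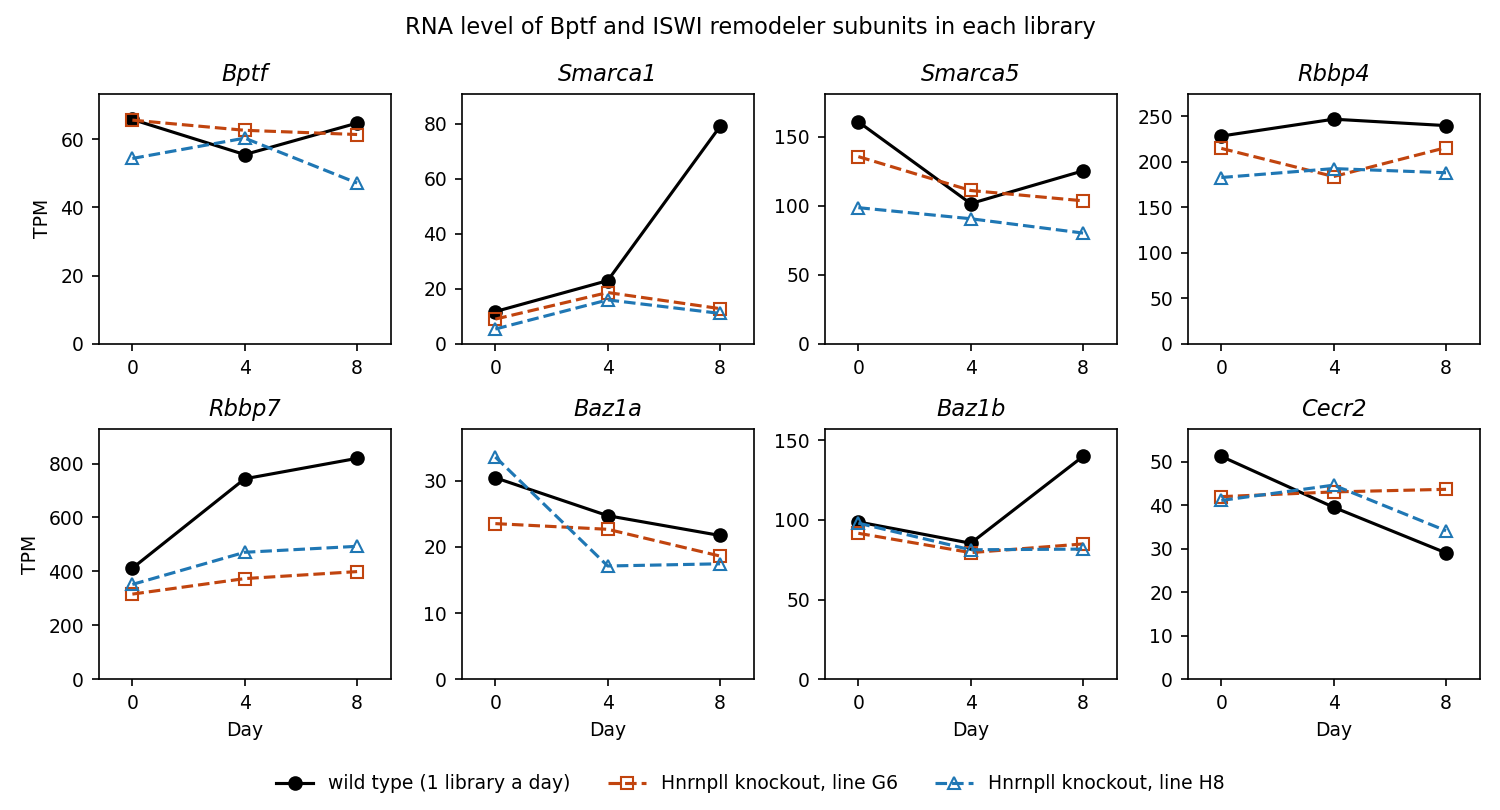
TPM (vertical axis, from 0, one scale per gene) against day for each of the 8 genes, with 1 point per library: filled circles for wild type, open squares for knockout line G6 and open triangles for line H8. Bptf is close to level, Smarca1 stands at 79.0 TPM in wild type at day 8 against 12.8 and 11.1 TPM in the knockout lines, and Rbbp7 is lower in the knockout at each day.

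Bptf (ENSMUSG00000040481, chr11:107033081-107132127, minus strand, mm10), the NURF-specific subunit, kept nearly the same gene-level RNA in all libraries. Wild type had 65.7, 55.5 and 64.7 TPM at day 0, 4 and 8. Line G6 had 65.5, 62.6 and 61.3 TPM, and line H8 had 54.3, 60.3 and 47.1 TPM. Both knockout lines lay below wild type at day 0 and day 8 and above it at day 4, and the highest library had 1.39 times the TPM of the lowest. Over the 9 libraries the SD of its log2 normalised counts, scaled to library size (CPM), was 0.152, and only 3.81% of 11193 protein-coding genes with a mean of at least 5 CPM had a smaller one.

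The log2 difference of Bptf was -0.16 (SE 0.21, adjusted p = 0.691) at day 0, 0.04 (SE 0.21, adjusted p = 0.964) at day 4 and -0.22 (SE 0.21, adjusted p = 0.523) at day 8. With all days in 1 additive model it was -0.11 (SE 0.13, adjusted p = 0.667), with a 95% interval from -0.41 to 0.18. Along the knockout course Bptf differed by 0.03 from day 0 to day 4 (adjusted p = 0.928) and by -0.18 from day 4 to day 8 (adjusted p = 0.765). The ratio of deposited counts to deposited TPM, which moves with the transcript length that the quantification used, stayed between 0.976 and 1.03 of its mean for Bptf. Its range was 0.0819 on the log2 scale, against a median of 0.113 over 11070 genes, and 42.5% of those genes had a smaller range. The ratio tells nothing of single exons.

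By its profile over the 9 libraries, Bptf was nearest to Mcmbp (root-mean-square log2 difference of 0.0751 among 11192 genes), Apoo (0.0789), Ibtk (0.0864), Prrc2c (0.0903) and Selenof (0.0933). Of its partners, Smarca5 ranked 203 and Rbbp4 ranked 288 in the same order, while Rbbp7 ranked 7026 and Smarca1 ranked 9956. The distance is not scaled to each gene's spread, so for a gene as level as Bptf it largely follows how much the other gene varies. The SD of log2 CPM was 0.253 for Smarca5, 0.168 for Rbbp4, 0.48 for Rbbp7 and 1.05 for Smarca1. The ranks therefore do not tell whether a partner follows the profile of Bptf. The ranking is a description, with no test, over libraries that differ in depth and come from 3 lines.

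Smarca1 (ENSMUSG00000031099, chrX:47809368-47892974, minus strand), the ISWI ATPase of NURF and CERF, was the gene that differed most. Wild type had 11.8, 23.0 and 79.0 TPM at day 0, 4 and 8. Line G6 had 9.02, 18.7 and 12.8 TPM, and line H8 had 5.42, 16.0 and 11.1 TPM. The knockout lines lay below wild type at each day, and at day 8 they held 15.1% of the wild-type level on average. In wild type the TPM of day 4 was 1.96 times that of day 0, and that of day 8 was 3.43 times that of day 4, from 1 library a day and with no test.

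At day 8 Smarca1 fell by 2.69 on the log2 scale in the knockout (SE 0.26, 6.46-fold, adjusted p = 0.0149, lower in 2 of 2 lines). It was the only one of the 8 genes called in that comparison, in which 9.87% of all genes were called. The adjusted p was 0.0572 without the day 4 library of G6, 0.0557 without that of H8 and 0.0783 without the day 8 library of G6, while the difference stayed between -2.73 and -2.60 over 16 other settings. At day 0 the log2 difference was -0.77 (SE 0.27, adjusted p = 0.149), in a comparison with 5.43% of all genes called and none of the 8. Over 16 other settings the day 0 difference lay between -1.12 and -0.51. It passed in 1 of these, without the day 0 library of G6 (-1.12). The H8 library left at day 0 in that fit was shallow too and alone gives no spread. At day 4 the log2 difference of Smarca1 was -0.40 (SE 0.27, adjusted p = 0.578), where 0.00807% of all genes and none of the 8 were called.

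Smarca1 also rose in the knockout itself from day 0 to day 4, by 1.26 on the log2 scale (SE 0.23, 2.39-fold, adjusted p = 0.0197), again as the only one of the 8 called, against 14.7% of all genes. Without the day 4 library of G6 or of H8 the adjusted p was 0.102 or 0.106. From day 4 to day 8 its difference in the knockout was -0.56 (SE 0.22, adjusted p = 0.36), with 0.311% of all genes and none of the 8 called. The genotype difference at day 8 was lower than at day 4 by 2.29 on the log2 scale (adjusted p = 0.131), in a test that called 0% of all genes, with 4041 of them at an unadjusted p under 0.05. The difference at day 8 set against that at day 0, a comparison added after the data were seen, was -1.92 (adjusted p = 0.0518), with 4.7% of all genes and none of the 8 called. It passed with RLE size factors (adjusted p = 0.048), DESeq2 (0.000389) and limma-voom (0.0377), and when the day 0 library of G6 (0.032) or of H8 (0.0237) was left out. Between day 4 and day 0 the genotype difference of Smarca1 changed by 0.37 (adjusted p = 0.67), where 0.504% of all genes and none of the 8 were called.

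The day 8 libraries also differed in cell type markers. The 8 markers of cardiac, endothelial, blood and endoderm cells summed to 719.5 TPM in wild type and to 63.5 and 69.1 TPM in the knockout, and 3 of the 8 fell (Tnnt2, Myh6 and Kdr). The globin gene Hbb-bh1 alone gave 462 TPM of the wild-type sum, and the endothelial marker Pecam1 had the opposite sign (21.1 TPM in wild type against 49.0 and 41.6 TPM, log2 difference 1.24, not called). The 7 fibroblast markers summed to 498 TPM against 14.5 to 40.1 TPM, and 3 of the 7 fell (Dcn, Pdgfrb and Col3a1), with Lum at 0 in line G6. Thy1, another of the 7, had a positive log2 difference (0.94, not called). The 8 pluripotency markers summed to 1182 TPM in wild type and to 6604 to 6971 TPM in the knockout, and 7 of the 8 rose. Markers also differed at the earlier days. At day 0 the 8 pluripotency markers summed to 6360 TPM in wild type and to 8560 to 9334 TPM in the knockout. All 8 had positive log2 differences and 2 rose (Esrrb and Zfp42), against 5.43% of all genes called. At day 4 the pluripotency sums were 2470 TPM and 3279 to 4049 TPM, with 6 of 8 log2 differences positive and none called. At day 4 the 5 primitive streak markers summed to 1519 TPM in wild type and to 52.6 to 121 TPM in the knockout. All 5 had negative log2 differences, and none was called. At day 0 the fibroblast markers summed to 168 TPM against 70.5 to 135 TPM, with 6 of 7 log2 differences negative and none called. At day 4 the fibroblast sums were 11.1 TPM and 18.5 to 23.0 TPM. The part of these differences in the results of the 8 genes and of the lists was not tested. In bulk RNA fewer cells of a type and less RNA per cell cannot be told apart.

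Smarca5 (ENSMUSG00000031715, chr8:80698507-80739497, minus strand), the main ISWI ATPase of stem cells and the partner of Baz1a and Baz1b, was at higher levels throughout. Wild type had 161, 102 and 125 TPM at day 0, 4 and 8, line G6 had 136, 111 and 104 TPM, and line H8 had 98.7, 90.6 and 80.3 TPM. In TPM both lines lay below wild type at day 0 and day 8, and wild type lay between them at day 4. On normalised CPM wild type lay between the lines at day 8 too (327 against 329 and 258 CPM). The log2 differences were -0.41 (SE 0.26, adjusted p = 0.381) at day 0, -0.09 (SE 0.27, adjusted p = 0.929) at day 4 and -0.16 (SE 0.26, adjusted p = 0.738) at day 8. Of its distinct 50-base sequences, 28.2% also occur in transcripts of other genes, among them the pseudogene Smarca5-ps, so its counts are uncertain if the counting split such reads.

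Put as a share, the same TPM values gave Smarca1 a smaller part of the ATPase pair in the knockout than in wild type at day 8. The share of Smarca1 in the summed Smarca1 and Smarca5 TPM was 6.82%, 18.5% and 38.7% in wild type at day 0, 4 and 8. In line G6 the share was 6.24%, 14.4% and 11.0%, and in line H8 it was 5.21%, 15.0% and 12.1%. Wild type lay above both lines at each day, with the widest gap at day 8. On CPM, which is not scaled to length, the day 8 shares were 33.5% in wild type and 7.27% and 8.91% in the knockout lines. With 1 wild-type library the shares were not tested.

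**Figure D2:**
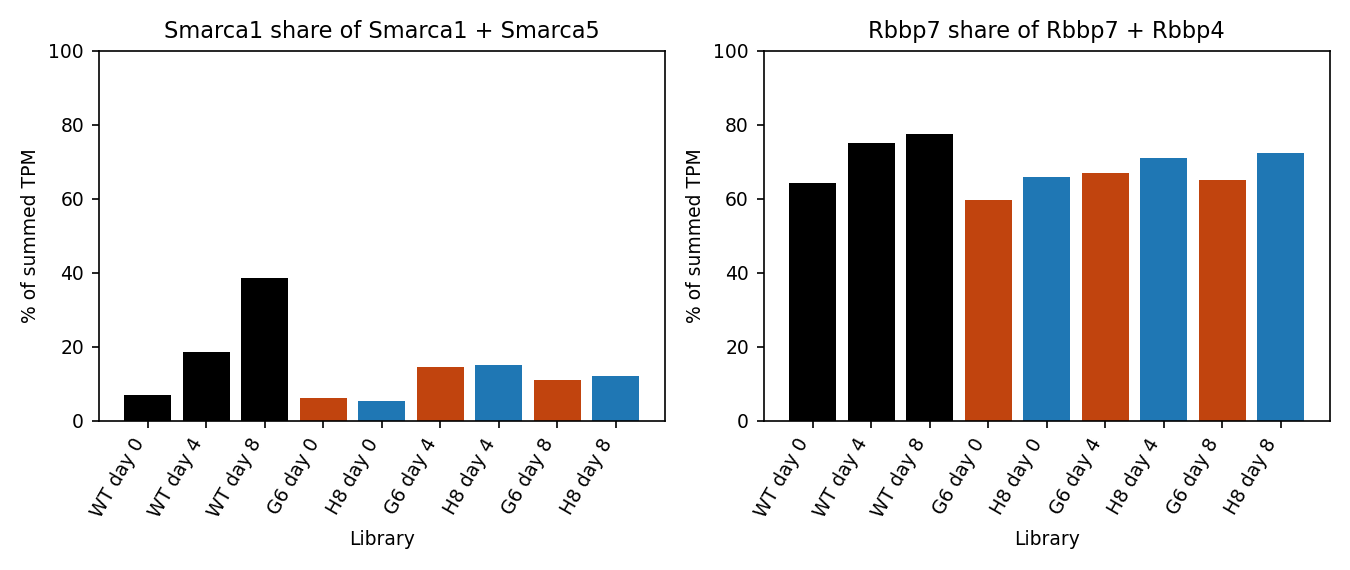
Share (% of summed TPM, from 0 to 100) of Smarca1 in the Smarca1 and Smarca5 pair, left, and of Rbbp7 in the Rbbp7 and Rbbp4 pair, right, with 1 bar per library (black wild type, red G6, blue H8). The wild-type bar of day 8 stands at 38.7% for Smarca1, above both knockout bars, while the Rbbp7 shares lie between 59.5% and 77.4%.

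Rbbp7 and Rbbp4 are close paralogs that bind histones in NURF and also in the NuRD, Polycomb, Sin3 and histone chaperone complexes. Rbbp7 (ENSMUSG00000031353, chrX:162760402-162779092, plus strand) had 412, 743 and 819 TPM in wild type (day 0, day 4, day 8). Line G6 had 316, 373 and 399 TPM, and line H8 had 352, 471 and 493 TPM. The knockout was lower in 6 of 6 libraries, and at day 4 and day 8 the gap to wild type was over 3 times the gap between the lines. It nevertheless missed the threshold, with log2 differences of -0.43 (SE 0.23, adjusted p = 0.314) at day 0, -0.85 (SE 0.23, adjusted p = 0.231) at day 4 and -0.80 (SE 0.23, adjusted p = 0.079) at day 8. Over all days the difference was -0.70 (SE 0.15, 95% interval -1.03 to -0.37, adjusted p = 0.0616), in a comparison with 0.984% of all genes and none of the 8 called.

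The call on Rbbp7 changed with the tool. Over all days it passed in DESeq2 (adjusted p = 0.00273) and limma-voom (0.0341). At day 8 it passed in DESeq2 (0.0234), limma-voom (0.0492) and with the knockout line as a replicate block (0.031), and at day 4 in DESeq2 alone (0.0435). Rbbp7 overlaps the gene Txlng on the other strand, and 11.2% of its 50-base sequences are shared with other genes.

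Rbbp4 (ENSMUSG00000057236, chr4:129307100-129335370, minus strand) was lower in 6 of 6 knockout libraries too, by less. Wild type had 228, 247 and 240 TPM at day 0, 4 and 8, line G6 had 215, 184 and 216 TPM, and line H8 had 183, 193 and 188 TPM. Its log2 differences were -0.21 (adjusted p = 0.496) at day 0, -0.46 (adjusted p = 0.331) at day 4, -0.13 (adjusted p = 0.649) at day 8 and -0.27 (SE 0.12, adjusted p = 0.254) over all days. The share of Rbbp7 in the pair was 64.3%, 75.1% and 77.4% in wild type, 59.5%, 67.0% and 64.9% in G6, and 65.8%, 71.0% and 72.4% in H8. At day 0 wild type lay between the lines, and at day 4 and day 8 it lay above both. Rbbp4 overlaps Sync and Gm26722 on the other strand and shares 17.2% of its 50-base sequences with other genes.

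Smarca1 and Rbbp7 are both on the X chromosome, and X-linked genes as a whole were lower in the knockout libraries. The median log2 difference of 389 X-linked protein-coding genes was -0.28 over all days, -0.39 at day 0, -0.12 at day 4 and -0.31 at day 8. The medians of 10787 autosomal genes were -0.02, 0.05, -0.0027 and -0.06. The part of this shift in the values of Rbbp7 and Smarca1 was not tested. The lower quartile of X-linked genes was -0.65 over all days, -0.88 at day 0, -0.38 at day 4 and -0.94 at day 8. Smarca1 lay below it over all days, at day 4 and at day 8 and above it at day 0, and Rbbp7 lay below it over all days and at day 4 and above it at day 0 and day 8.

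Baz1b and Baz1a, the partners of Smarca5 in WICH and ACF, were not called between the genotypes at any day. Baz1b (ENSMUSG00000002748, chr5:135187264-135246129, plus strand), also known as the Williams syndrome transcription factor, had 98.8, 85.4 and 139.95 TPM in wild type (day 0, day 4, day 8). Line G6 had 91.7, 79.5 and 84.9 TPM, and line H8 had 98.0, 81.3 and 81.7 TPM. The wild-type library of day 8 stood apart from the other 8 libraries, which lay between 79.5 and 98.8 TPM. The day 8 log2 difference of Baz1b was -0.65 (SE 0.16, adjusted p = 0.0549), which missed the threshold. It passed in 6 of 16 other settings, among them DESeq2 (adjusted p = 0.0103), limma-voom (0.0285) and the fits without the day 0 library of G6 (0.03) or of H8 (0.0299). The differences at day 0 (-0.14, adjusted p = 0.631) and day 4 (-0.17, adjusted p = 0.696) lay nearer to 0 than at day 8, and the change in the genotype difference from day 4 to day 8 was -0.48 (adjusted p = 0.367).

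Baz1a (ENSMUSG00000035021, chr12:54892989-55014348, minus strand), the ACF subunit, had 30.4, 24.7 and 21.7 TPM in wild type, 23.5, 22.6 and 18.6 TPM in G6, and 33.6, 17.1 and 17.4 TPM in H8 at day 0, 4 and 8. Wild type lay between the lines at day 0 and above both at the later days. Baz1a overlaps the protein-coding gene Gm20403 on the same strand and shares 8.59% of its 50-base sequences with other genes, so its counts are uncertain. None of its differences between the genotypes passed (log2 differences of -0.05 at day 0, -0.41 at day 4 and -0.29 at day 8, adjusted p = 0.938, 0.567 and 0.517). In the knockout the difference from day 0 to day 4 was -0.64 (SE 0.23, adjusted p = 0.11). It passed without the day 0 library of G6 (adjusted p = 0.0274) and in DESeq2 (0.0479).

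Cecr2 (ENSMUSG00000071226, chr6:120666369-120771190, plus strand), the CERF subunit known from neural tube closure, had 51.2, 39.5 and 29.0 TPM in wild type (day 0, day 4, day 8). Line G6 had 41.9, 43.0 and 43.6 TPM, and line H8 had 41.1, 44.6 and 34.1 TPM. Both lines were below wild type at day 0 and above it at day 8. At day 4 they were above in TPM and below in normalised CPM (116 and 115 against 118 CPM), so the direction there depends on the scale. The log2 difference was -0.42 (SE 0.20, adjusted p = 0.257) at day 0, -0.04 (SE 0.20, adjusted p = 0.964) at day 4 and 0.46 (SE 0.20, adjusted p = 0.195) at day 8. The change of sign from day 0 to day 8 was tested as a difference of 0.88 between the genotype differences (SE 0.28, adjusted p = 0.126) and missed the threshold.

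**Figure D3:**
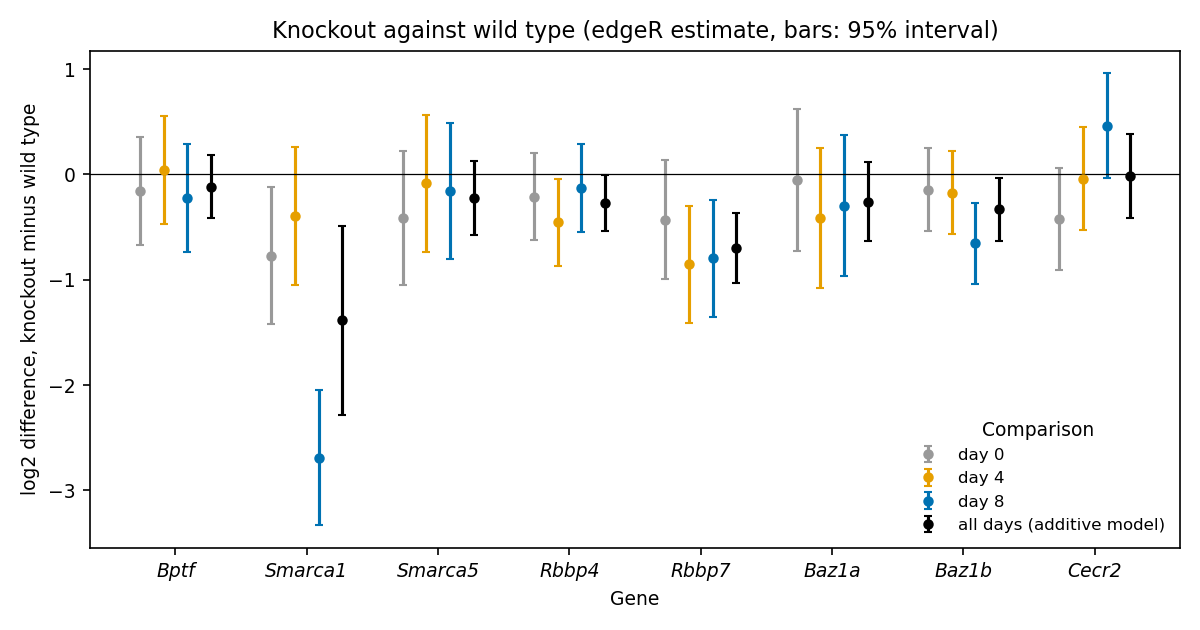
Log2 difference, knockout minus wild type (vertical axis), of each gene at day 0, 4 and 8 and over all days, as edgeR estimates with 95% intervals. Smarca1 at day 8 (-2.69) is the lowest estimate, while the 4 intervals of Bptf all include 0.

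As a group, the 8 genes had negative log2 differences for 8 of 8 over all days and at day 0. At day 4 and at day 8 it was 7 of 8. Some of the negative values lay near 0. Cecr2 was at -0.02 over all days (adjusted p = 0.972), and its sign changed in 9 of 20 other settings. Baz1a was at -0.05 at day 0 (adjusted p = 0.938), with a sign change in 1 of 16. The median of the 8 genes was -0.26 over all days, -0.31 at day 0, -0.29 at day 4 and -0.26 at day 8. The medians over all genes tested were -0.02, -0.02, 0.07 and 0.08. The comparisons over all days and within days share the same wild-type libraries, so these medians do not add to each other.

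Further genes of the pathway were described from lists that were made with earlier results of these data known. Of 14 ISWI partners outside the 8 (among them Rsf1, Baz2a, Chrac1 and Pole3), none rose and 1 fell at day 0, and none was called over all days, at day 4 or at day 8. Over all genes 0.984% were called over all days, 5.43% at day 0, 0.00807% at day 4 and 9.87% at day 8. The 1 was Luzp1, which has been purified with Cecr2. It had 46.7, 19.4 and 37.4 TPM in wild type, 29.0, 25.9 and 22.6 TPM in G6, and 20.9, 17.7 and 20.7 TPM in H8 at day 0, 4 and 8. Its day 0 log2 difference was -1.05 (SE 0.19, adjusted p = 0.0351). The call was lost in 7 of 16 other settings, 5 of them with 1 knockout library left out (adjusted p up to 0.0988) and 2 on TPM (0.138 and 0.135). Hmgxb4 and 0610010K14Rik (Bap18), which copurify with NURF, were not called in any comparison.

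The other complexes that hold Rbbp4 and Rbbp7 (NuRD, Polycomb, Sin3, chromatin assembly factor and histone acetyltransferase, 25 genes) showed calls at day 8 in both directions, 3 higher and 1 lower, against 9.87% of all genes called. Their median log2 difference there was 0.13, against 0.08 over all genes. The NuRD subunit Mta3 rose by 1.15 (SE 0.16, adjusted p = 0.0216), with 70.9 TPM in wild type and 180.3 and 150.4 TPM in G6 and H8. The Polycomb subunit Eed rose by 1.04 (SE 0.21, adjusted p = 0.037) and the Sin3 subunit Sap30 by 0.89 (SE 0.20, adjusted p = 0.0449). The NuRD ATPase Chd3 fell by 2.28 (SE 0.42, adjusted p = 0.0306). Chd3 had 21.9, 40.2 and 125 TPM in wild type, 18.2, 24.0 and 16.5 TPM in G6, and 11.1, 29.0 and 35.1 TPM in H8, so its wild-type day 8 library stood highest, as for Smarca1. Each of the 4 calls was lost when a day 4 knockout library or the G6 library of day 8 was left out, and those of Mta3, Eed and Sap30 also with H8 of day 8 left out (adjusted p from 0.0549 to 0.163). The call of Sap30 was lost too with no filter (adjusted p = 0.0547) and on TPM (0.0583 and 0.0624).

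In the knockout from day 0 to day 4, where 14.7% of all genes were called, 2 of these 25 genes fell. Ezh2, the Polycomb methyltransferase, fell by 0.71 (adjusted p = 0.0203) and Eed fell by 0.74 (adjusted p = 0.0357) on the log2 scale. Both calls were lost without either day 4 or either day 8 library of the knockout, and that of Eed also without the day 0 library of H8 (adjusted p from 0.0527 to 0.185). Of 14 CHD and INO80 family remodelers, none was called between the genotypes at any day or over all days. Over all genes 5.43% were called at day 0, 0.00807% at day 4, 9.87% at day 8 and 0.984% over all days. At these shares the lack of calls among 14 genes tells little. In the knockout course 1 of the 14, Srcap, fell from day 0 to day 4 by 1.03 (SE 0.25, adjusted p = 0.0442), a call lost without the day 0 library of G6 or any of the 4 later knockout libraries (adjusted p from 0.0677 to 0.215), with total-count scaling (0.0591) or with no filter (0.0502).

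**Figure D4:**
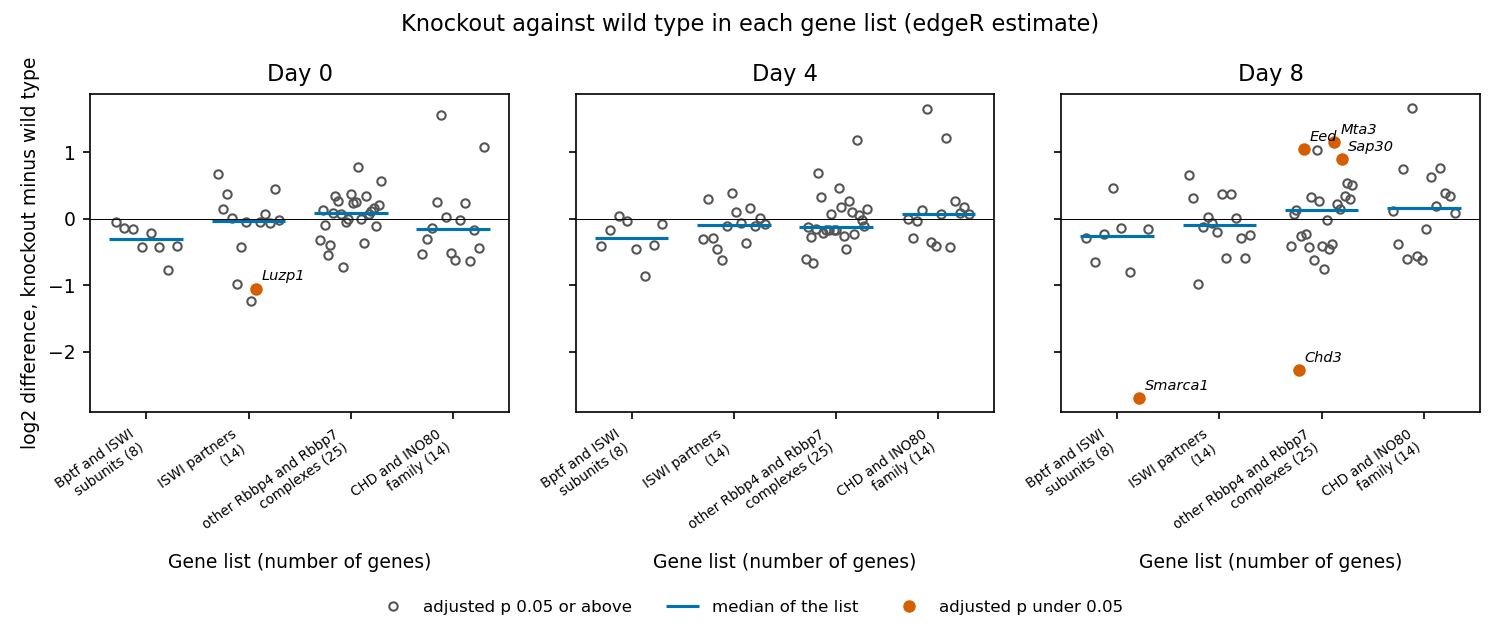
Log2 difference, knockout minus wild type (vertical axis), of each gene of 4 lists at day 0, 4 and 8, as edgeR estimates; filled points passed the threshold, open points did not, and bars mark list medians. Smarca1 and Chd3 are the low filled points at day 8, and no gene of the 4 lists is filled at day 4.

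Tbx3, a pluripotency factor, is the other known splicing target of Hnrnpll in stem cells. It had 35.01, 19.1 and 46.1 TPM in wild type (day 0, day 4, day 8), 71.9, 14.2 and 66.1 TPM in G6, and 130.4, 15.0 and 93.9 TPM in H8. From day 0 to day 4 it fell by 2.93 in the knockout (SE 0.36, adjusted p = 0.00671), a call lost without either day 4 knockout library (adjusted p = 0.0598 and 0.0608). From day 4 to day 8 its difference in the knockout was 2.37 (adjusted p = 0.065), which passed in 5 of 17 other settings, among them DESeq2 (adjusted p = 2.24e-08) and limma-voom (0.0378). Hnrnpl, the paralog of Hnrnpll, fell by 0.68 in the knockout from day 0 to day 4 (adjusted p = 0.0242). This call was lost without the day 4 library of G6 or of H8 or the day 8 library of H8 (log2 differences of -0.64, -0.73 and -0.69). Neither was called between the genotypes, with day 0 log2 differences of 1.60 for Tbx3 (adjusted p = 0.0979) and 0.53 for Hnrnpl (adjusted p = 0.122), beside -0.16 for Bptf. The day 0 difference of Tbx3 passed in DESeq2 (adjusted p = 0.00396) and without the day 0 library of G6 (0.0282).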

How the data were processed

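PolyA+ RNA-seq of 9 libraries was used, with groups taken from the sample titles. The authors deposited, per library, unscaled whole-number counts of reads by gene, and TPM by gene. The submitters' processing notes name HISAT2 2.0.5, StringTie 1.3.3b and mm10; which tool did what, which annotation served and whether strand was used is not given in the sources used here, so counts of overlapping genes are uncertain. Per library, 259 entries without a gene name (0.0242% to 0.0398% of counts) were left out. All 49326 identifiers matched GENCODE M21.

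Genes were tested if 2 or more libraries had 0.0791 CPM, which is 10 counts in the library of median depth (24794 genes). Counts were scaled by TMM and tested two-sided with edgeR 4.0.16 (quasi-likelihood F test, limma 3.58.1, R 4.3.3) at an adjusted p of 0.05. Within-day, course and interaction comparisons came from a model of 6 group means (3 residual degrees of freedom), in which the single wild-type library of a day is taken to vary as knockout libraries do; the additive model of day and genotype has 5. The script was tested on simulated data with changes larger than those of most of the 8 genes and a smaller spread than in these libraries. That test tells nothing of how well small differences are found. In total 8 comparisons were planned and 1 was added after the data were seen. The labels do not say whether libraries came from separate cultures, so p-values measure only the spread between these samples, which may in part be technical. In the model of group means that spread is the difference between lines G6 and H8. In the additive model it also holds changes of the genotype difference between days. Libraries of the same line at different days were treated as independent, except where the line was fitted.

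The knockout line is shared between days, and the differences between H8 and G6 correlated between days across 15063 genes (Pearson r = 0.188, 0.159 and 0.417), so the line was also fitted as a replicate block. The other alternatives were RLE and total-count scaling, no filter, DESeq2 1.42.0, limma-voom, log2 of TPM with a pseudocount of 1 or 0.1, each library left out, each line alone and no day 0 libraries. The 8 genes and the lists were chosen with earlier results of these data known. Named were the 8 genes in each comparison, Hnrnpll, Hnrnpl and Tbx3, up to 4 genes past the threshold per list, and the 5 genes nearest in profile to Bptf; partners named as examples or as not called were chosen after their values were seen.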

Additional observations from a re-analysis of the deposited data

Results flagged for a closer look

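A pair of genes of the other complexes that hold Rbbp4 and Rbbp7 had genotype differences that changed between day 0 and day 8 by the test of that change, 2 of 25 genes against 4.7% of all genes. For the NuRD subunit Mta1 the knockout minus wild-type log2 difference was 1.23 lower at day 8 than at day 0 (value -1.23, SE 0.23, adjusted p = 0.0417), with 43.8 and 77.2 TPM in wild type, 74.1 and 51.9 TPM in G6 and 72.5 and 57.9 TPM in H8 at day 0 and day 8. For Mta3 it was 1.52 higher (SE 0.22, adjusted p = 0.0262), with 161 and 70.9 TPM in wild type, 120.3 and 180.3 TPM in G6 and 107.5 and 150.4 TPM in H8. Both calls were lost without any 1 of the knockout libraries of day 4 or day 8, with adjusted p from 0.101 to 0.142 for Mta1 and from 0.0711 to 0.103 for Mta3, and that of Mta1 also with no filter (0.0544). The comparison was added after the data were seen, and the cause of the change was not tested.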

How the results depend on the processing

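Over 20 alternative settings, 1176 log2 differences of the 8 genes were recomputed. Of these, 1101 kept their direction and their side of the threshold, 22 newly passed it, 5 no longer passed it and 48 changed sign, all among values that were not called. The 5 lost calls were those of Smarca1 at day 8 and in the knockout from day 0 to day 4 with 1 knockout library left out. A day left with 1 knockout library gives no spread, and its library is then assumed to vary like those of the other days. The number of the 8 genes called over all days was 0, and it was 2 in DESeq2 and 1 in limma-voom. At day 0 it was 0, with 0 to 1 when 1 library was left out. At day 4 it was 0, and 1 in DESeq2. At day 8 it was 1, and it was 3 in DESeq2, 3 in limma-voom, 2 with a TPM pseudocount of 1 or of 0.1, 2 with the replicate block, and 0 to 2 when 1 library was left out. In the knockout from day 0 to day 4 it was 1, with 2 in DESeq2 and 0 to 2 when 1 library was left out. For the genotype difference at day 8 against day 4 it was 0, and 1 in DESeq2. For day 8 against day 0 it was 0, and it was 1 with RLE size factors, in DESeq2 and in limma-voom, and 0 to 1 when 1 library was left out. The share of all genes called is given only for the edgeR fits with TMM, where it was 9.87% at day 8. In the other settings the counts have no such share beside them and say nothing particular to the 8 genes. The cause of the changes in these counts was not tested. Beside the day 8 call of Rbbp7, the replicate block changed no other call of the 8 genes; it also brought Hnrnpll past the threshold at day 8 (adjusted p = 0.0458) and over all days (0.0357) and Tbx3 from day 4 to day 8 in the knockout (0.0459). For knockout against wild type at day 8 the median of all genes shifted from its TMM value by -0.0349 with RLE size factors, 0.0935 with total-count scaling and -0.0878 and -0.107 on TPM; the widest shift in any comparison was -0.168, on TPM, for the genotype difference at day 8 against day 4. The fits without a day's wild-type library gave no value for that day's genotype comparisons. The knockout libraries of day 0 are the shallowest, and what depth limits was not tested.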
